A study of Mus musculus with 6 samples.

Results

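The cytosolic ribosomal protein genes encode the protein subunits of the ribosome that works in the cytoplasm. They were taken from a bulk RNA-sequencing experiment on cultured mouse skin cells that the study names endothelial cells (ECs). Members were chosen by their gene symbols, which begin with Rpl, Rps or Rplp followed by a number, or are Rpsa. The pattern matched 85 of the 55487 genes in the deposited count table, and 3 of these (Rpl32l, Rpl6l and Rps4l) are annotated as processed pseudogenes and were left out. The remaining 82 genes comprised 76 core genes, of which 46 belong to the large subunit and 30 to the small subunit, and 6 paralogues (Rpl3l, Rpl7l1, Rpl10l, Rpl22l1, Rpl39l and Rps27l). The genes Fau, Rps3a1 and Rpl36al also encode ribosomal proteins, but their symbols fall outside the pattern, so they were described separately.

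All cells came from the skin of C57BL/6 mice aged 2 to 3 months, with 4 to 6 mice pooled for an isolation, and were enriched with beads against CD31 before culture. One group of 3 samples was kept in medium with 5 mmol/L glucose (normal glucose) and the other group of 3 samples in medium with 20 mmol/L glucose (high glucose), each for 48 hours. The study used this contrast to model the exposure of ECs to hyperglycemia in diabetes. A caption for the sequencing data counts 3 mice in each group, whereas the growth protocol pools mice for an isolation, so it is not clear whether each sample came from its own isolation. P values measure the spread between these samples, part of which may be technical.

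Each ribosome is built from a small subunit, which reads the mRNA, and a large subunit, which joins amino acids. Cells produce the core proteins in step with one another and with the ribosomal RNAs. The mRNAs of these genes start with an uninterrupted run of pyrimidines, the 5′ terminal oligopyrimidine (TOP) tract, through which mTOR complex 1 and the RNA-binding protein LARP1 control their translation and stability. The elongation factors and several other parts of the translation machinery are encoded by mRNAs with the same tract.

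The pyrimidine tract can be read around the start sites of these genes. Of the 76 core genes, 56 had a start site in the RefSeq promoter table for GRCm38.p6. In 20 of these 56 (35.7%), the annotated start base lay within a run of at least 5 pyrimidines, against 11.8% of the 27025 genes in the table. The sequences of 8 such genes are printed because they include members with some of the longest runs, members that fell under high glucose (Rplp2, Rps6, Rpl15, Rps10, Rps18 and Rpl7a) and a pair whose values stayed near those under normal glucose (Rps27 and Rpl31). Each shows the 15 bases before the start followed by the 15 bases that begin with it, on the coding strand, and capitals mark the pyrimidine run.
Rpl7a (chr2:26910792-26910821, plus strand): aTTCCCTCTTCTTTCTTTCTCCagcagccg
Rpl15 (chr14:18270972-18271001, minus strand): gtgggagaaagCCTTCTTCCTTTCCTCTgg
Rps10 (chr17:27635230-27635259, minus strand): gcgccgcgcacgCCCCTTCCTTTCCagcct
Rps18 (chr17:33955651-33955680, minus strand): tacgtcacttccgCTCTCTCTTCCacagga
Rplp2 (chr7:141447636-141447665, plus strand): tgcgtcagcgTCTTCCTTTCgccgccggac
Rps6 (chr4:86857353-86857382, minus strand): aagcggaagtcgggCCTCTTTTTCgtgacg
Rps27 (chr3:90213634-90213663, minus strand): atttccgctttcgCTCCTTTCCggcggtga
Rpl31 (chr1:39367836-39367865, plus strand): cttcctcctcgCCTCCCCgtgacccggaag

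The run was 21 bases long in Rpl7a, 10 in Rplp2 and Rps6, 9 in Rps27 and 7 in Rpl31. Among the genes not printed, Rpl27a and Rpl34 had runs of 20 bases and were not called. Rps21, with a run of 7, and Rpl39, with a run of 5, were called lower. These genes were picked for having a run, and 13 of the 20 core genes with one were called lower. Of all 76 core genes, 54 were called lower (71.1%), against 14.5% of all tested genes. The motif CTTTCC, searched on both strands, which lies within longer pyrimidine runs, was found within 50 bases of the start in 33.9% of the 56 core genes and in 10.3% of all genes in the table. Over the whole window, from 250 bases before to 50 after the start, the ETS family motif CCGGAAG was found on either strand in 41.1% of the core genes and 9.93% of all genes. The YY1 motif AAGATGGC was found in 8.93% and 3.19%, and the TATA box sequence TATAAA in 10.7% and 15.7%. Within 50 bases of the start, TATAAA was found in 7.14% and 5.77%, the opposite order. A match describes the letters in the window and does not show a site in use.

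The deposited counts summed to between 120192466 and 146881356 per sample, and the ribosomal protein genes held between 2957761 and 4206475 of them. Fibroblast markers held far more counts than endothelial markers in every sample. The 12 fibroblast markers summed to 39314 to 42530 normalized CPM (counts scaled to a common library total) under normal glucose and 71949 to 76823 under high glucose, with 10 of them higher and 1 lower under high glucose. The 12 endothelial markers summed to 163 to 187 under normal glucose and 156 to 161 under high glucose, with 2 of 9 tested lower and 2 higher. Pecam1, which encodes CD31, had 9 to 19 counts per sample, and Tie1 was at 0 in 5 samples. Mural markers (6 of 6 tested) had 3 lower and 1 higher, macrophage markers (3 of 6 tested) 2 lower and 0 higher, and keratinocyte markers (4 of 6 tested) 0 lower and 1 higher. Over all tested genes, 14.5% were lower and 16.9% higher. The part of this marker difference in the results on ribosomal protein genes was not tested. In bulk samples, fewer cells of a type and less RNA per cell cannot be told apart.

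In normal glucose, the ribosomal protein genes took 3.50%, 2.88% and 3.18% of all counts in replicates 1, 2 and 3. In high glucose, they took 2.41%, 2.43% and 2.49%. All 3 high glucose samples lay below the 3 normal glucose samples. The mean share was 3.19% ± 0.309 (SD, n = 3) under normal glucose and 2.44% ± 0.0401 (SD, n = 3) under high glucose, so the normal glucose samples were spread more widely than the high glucose samples. The large subunit core genes went from 1.92% ± 0.188 to 1.47% ± 0.0226 and the small subunit core genes from 1.24% ± 0.120 to 0.947% ± 0.0184 (SD, n = 3 each).

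**Figure D1:**
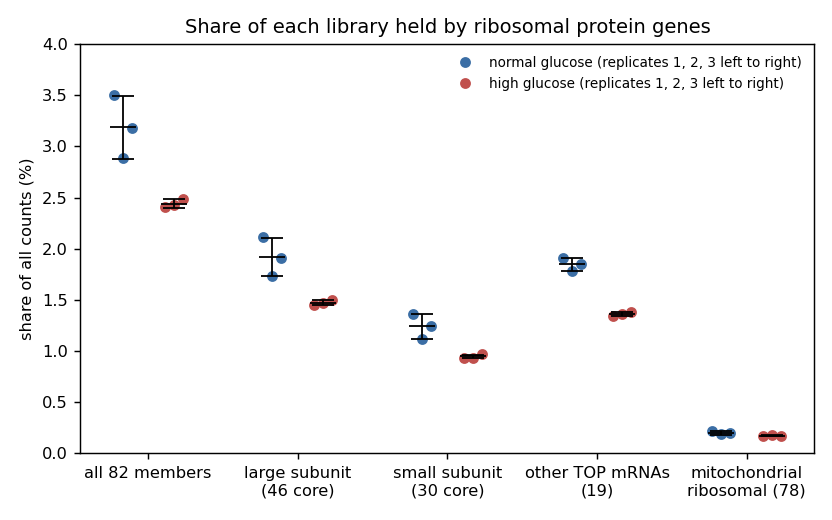
Percent of all deposited counts in each sample (vertical axis) that fell in the 82 ribosomal protein genes, their large and small subunit core genes, 19 other TOP mRNAs and 78 mitochondrial ribosomal protein genes. Points are samples and black bars are the mean ± SD of 3 samples, and for all 82 members the normal glucose samples lie at 2.88% to 3.50% and the high glucose samples at 2.41% to 2.49%.

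Of the 82 genes, 80 had enough counts to be tested, and 56 of these were lower under high glucose than under normal glucose by the quasi-likelihood test in edgeR with a Benjamini-Hochberg adjusted P value below 0.05. None was higher by this test or by DESeq2. In the whole table, 14.5% of the 19015 tested genes were called lower and 16.9% higher. All 80 log2 fold changes were below 0, as were 49.0% of those of all genes. An unadjusted P value under 0.05 was found for 70 of the 80, and the share of all genes with such a value is not given here. The median log2 fold change of the 80 genes was -0.27, with a range from -0.45 to -0.0039, against a median of 0.0062 over all tested genes. Among the other 1444 genes whose mean was 7 or more on the log2 CPM scale, where most ribosomal protein genes lie, 18.7% were lower, 30.4% were higher and the median was 0.039. For 59 of the 80 genes the high glucose values lay wholly below the normal glucose values, which was the case for 21.3% of all tested genes.

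The number of calls depended on which samples entered the fit. It was 28 without high glucose replicate 1 and 37 without high glucose replicate 2 or without normal glucose replicate 3, while the median stayed between -0.28 and -0.27 in these fits. Calls over all tested genes fell too, from 14.5% lower to 10.8% without high glucose replicate 1 and 12.1% in each of the other 2 fits. Without high glucose replicate 3, 38 members and 10.6% of all tested genes were called lower. The median was -0.17, with 44 genes called lower, after the trend of each library with GC content and transcript length was removed, a fit in which 15.8% of all genes were lower and 19.4% higher. Scaling by library size alone, which shifted the median of all genes by -0.11, gave 75 genes called lower, with 25.7% of all genes lower and 9.57% higher.

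The normal glucose samples differed from one another more than the high glucose samples did. Relative to the normal glucose mean on the log2 scale, the median ribosomal protein gene stood at 0.14, -0.15 and 0.014 under normal glucose replicates 1, 2 and 3. It stood at -0.29, -0.25 and -0.24 under high glucose replicates 1, 2 and 3. Replicate 1 held the highest of the 3 normal glucose values for 70 of the 80 genes, and replicate 2 the lowest for 74. The standard deviation of a gene between samples, on the log2 scale, had a median of 0.157 under normal glucose and 0.0463 under high glucose, and it was the larger under normal glucose for 76 genes. The corresponding medians for the other genes at 7 or more on the log2 CPM scale were 0.0819 and 0.0382. Without normal glucose replicate 1 the median log2 fold change was -0.20 and 52 genes were called lower, and without normal glucose replicate 2 it was -0.35 and 74 were called, while 15.7% and 15.9% of all tested genes were lower in these fits.

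Short transcripts followed a similar order among the samples with smaller differences. The 3600 other genes with a mean transcript length under 1000 bases had medians of 0.087, -0.069 and -0.012 under normal glucose and -0.090, -0.085 and -0.069 under high glucose, on the same scale. Their median log2 fold change was -0.10, against 0.031 for longer genes. Ribosomal protein transcripts were short, with a median of 726.5 bases against 1975 for all tested genes, and 62 of the 80 lay under 1000 bases. The part of transcript length in the ribosomal protein result was not tested beyond the removal of the GC and length trend given above. Among the 80 genes themselves, the log2 fold change varied little with transcript length (Pearson r = -0.056 across 80 genes, which are not independent replicates), with GC content (r = 0.097) or with mean level (r = -0.16).

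**Figure D2:**
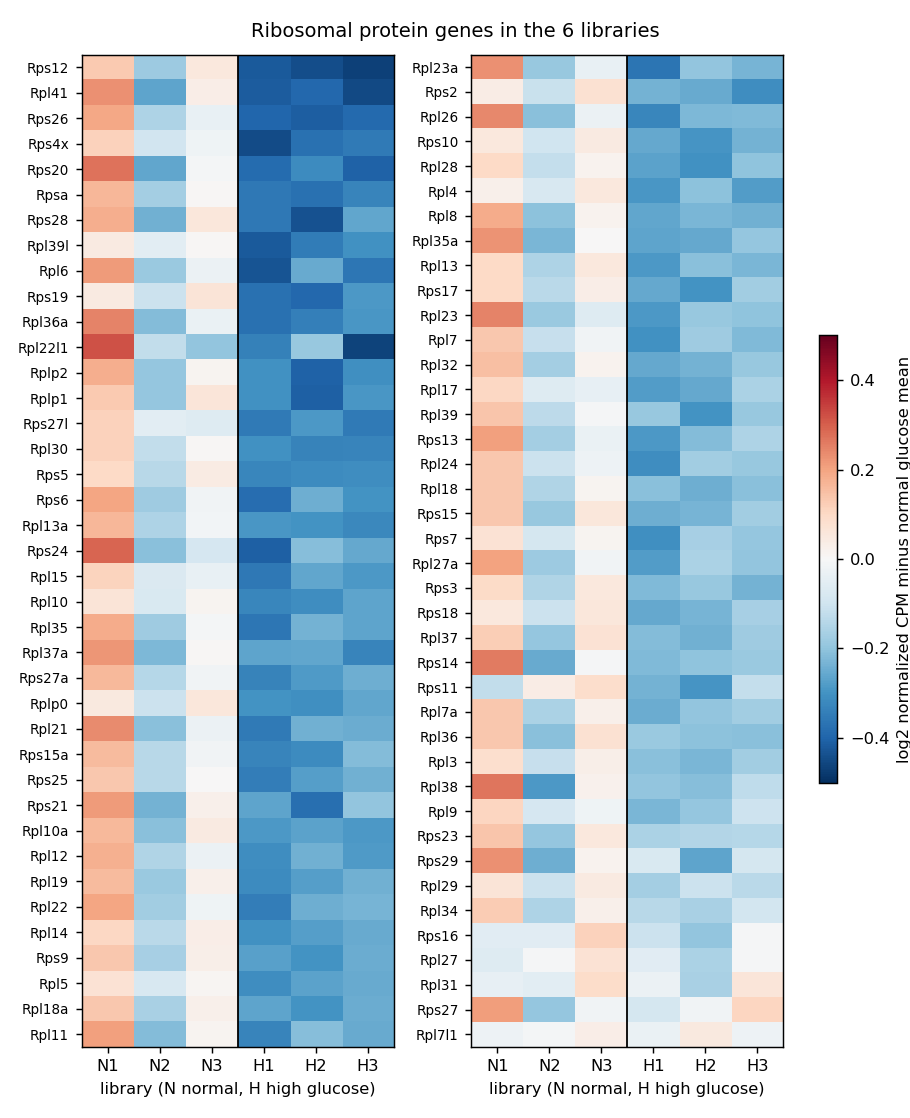
Difference of 79 of the 80 tested ribosomal protein genes (rows, ordered by log2 fold change) from their means under normal glucose, as log2 normalized CPM, in the 6 samples (columns). Red is above and blue below the mean. The columns of normal glucose replicate 1 are mostly red and those of replicate 2 mostly pale blue, and 80, 79 and 78 of the 80 genes lie below the normal glucose mean under high glucose replicates 1, 2 and 3.

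The 5 largest falls among the called genes were those of Rps12, Rpl41, Rps26, Rps4x and Rps20, and no gene was called higher. Rps12 (ENSMUSG00000061983, chr10:23785183-23787275 on GRCm38, minus strand) encodes a protein of the small subunit head, and its exons overlap 3 small nucleolar RNA genes on the same strand. It had 463, 372 and 438 normalized CPM under normal glucose and 315, 310 and 306 under high glucose. The high glucose samples were all below the normal glucose samples, a log2 fold change of -0.45 (SE 0.0752, adjusted P = 0.00123 by the quasi-likelihood test in edgeR).

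Rpl41 (ENSMUSG00000093674, chr10:128548114-128549305, minus strand) encodes the smallest ribosomal protein and had 653, 464 and 570 normalized CPM under normal glucose and 418, 424 and 408 under high glucose. Normal glucose replicate 2 was the nearest to the high glucose samples without reaching them, and the log2 fold change was -0.43 (SE 0.101, adjusted P = 0.00853 by the same test). Rps26 (ENSMUSG00000025362, chr10:128624534-128626747, minus strand), which lies at the mRNA exit channel, had 353, 277 and 301 normalized CPM under normal glucose and 234, 232 and 236 under high glucose. Its high glucose samples lay close together and below all normal glucose samples (log2 fold change -0.41, SE 0.0793, adjusted P = 0.00313).

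Rps4x (ENSMUSG00000031320, chrX:102184941-102189394, minus strand), the X-linked small subunit gene, had 814, 705 and 742 normalized CPM under normal glucose and 552, 581 and 589 under high glucose. The groups did not overlap, and the log2 fold change was -0.39 (SE 0.0626, adjusted P = 0.000908). Rps20 (ENSMUSG00000028234, chr4:3831334-3835665, minus strand) had 528, 366 and 435 normalized CPM under normal glucose and 335, 352 and 331 under high glucose. Normal glucose replicate 2 was just above the highest high glucose sample, and the log2 fold change of -0.38 (SE 0.108, adjusted P = 0.0215) did not pass the threshold without high glucose replicate 1 or without high glucose replicate 3.

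**Figure D3:**
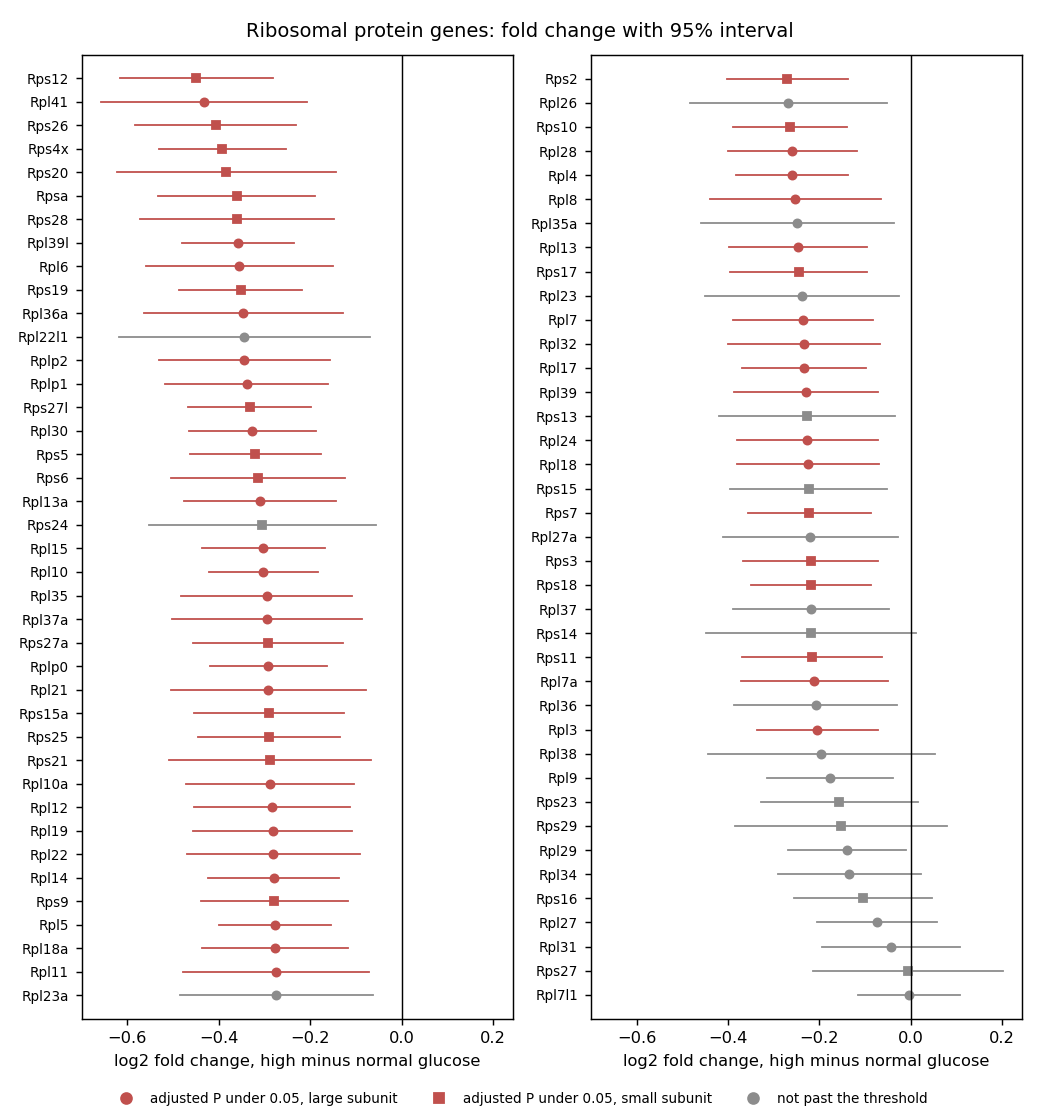
Log2 fold change between high and normal glucose for 79 of the 80 tested ribosomal protein genes (points) with its 95% confidence interval (lines), in order from the largest fall. Red marks the 56 genes with an adjusted P value under 0.05, circles the large and squares the small subunit, and the values run from -0.45 for Rps12 to -0.0039 for Rpl7l1.

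Members of the large and of the small subunit were called lower in nearly equal shares. Of the 46 large subunit core genes, 33 were called lower (71.7%), with a median log2 fold change of -0.26, and 37 had groups that did not overlap. Of the 30 small subunit core genes, 21 were called lower (70.0%), with a median of -0.27, and 20 had groups that did not overlap. Over all tested genes, 14.5% were called lower and 21.3% had high glucose values wholly below the normal glucose values. The difference between the subunits was not tested.

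The lateral stalk of the large subunit, which recruits the elongation factors, is built from the products of Rplp0, Rplp1 and Rplp2, and all 3 genes fell. Rplp0, which encodes the base of the stalk, had 1317, 1182 and 1325 normalized CPM under normal glucose and 1034, 1028 and 1062 under high glucose. Rplp1 had 732, 584 and 697 under normal glucose and 542, 503 and 546 under high glucose. No high glucose sample reached a normal glucose sample for any of the 3 genes. The log2 fold changes were -0.29 for Rplp0 (SE 0.0577, adjusted P = 0.00342), -0.34 for Rplp1 (SE 0.0805, adjusted P = 0.00931) and -0.34 for Rplp2 (SE 0.0844, adjusted P = 0.0110).

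Rpl5 and Rpl11 encode the proteins that join the 5S ribosomal RNA before it enters the large subunit and that can bind MDM2. Rpl5 had 482, 433 and 461 normalized CPM under normal glucose and 370, 381 and 384 under high glucose, without overlap (log2 fold change -0.28, SE 0.0549, adjusted P = 0.00347). Its exons overlap those of Fam69a on the opposite strand over 953 bases, and the sources do not state whether counting used strand. Rpl11 had 401, 299 and 351 normalized CPM under normal glucose and 277, 300.3 and 292 under high glucose. Normal glucose replicate 2 lay within the high glucose range, and the log2 fold change of -0.27 (SE 0.0920, adjusted P = 0.0445) was not past the threshold in 5 of the 6 fits that left out a sample.

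Other members with a role of their own also fell. Rpsa, whose product is also known as the laminin receptor precursor, had 1041, 823 and 929 normalized CPM under normal glucose and 722, 716 and 737 under high glucose, a log2 fold change of -0.36 (SE 0.0772, adjusted P = 0.00533). Rps6, whose protein is the substrate of the S6 kinases downstream of mTOR, had 556, 429 and 480 under normal glucose and 373, 410 and 395 under high glucose, a log2 fold change of -0.31 (SE 0.0860, adjusted P = 0.0189). In both genes the high glucose samples were all below the normal glucose samples, and that of Rps6 was not past the threshold without high glucose replicate 1.

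Rps19, a small subunit gene mutated in Diamond-Blackfan anemia, had a log2 fold change of -0.35 (SE 0.0607, adjusted P = 0.00148). Rpl10, which completes the large subunit late in its maturation, had one of -0.30 (SE 0.0539, adjusted P = 0.00182). Rps27a, whose product is made as a fusion to ubiquitin, had one of -0.29 (SE 0.0740, adjusted P = 0.0129), and Rpl3, next to the peptidyl transferase center, one of -0.20 (SE 0.0595, adjusted P = 0.0247). The groups did not overlap for any of these 4 genes, and the call of Rpl3 was lost without normal glucose replicate 3 and without any 1 of the high glucose samples. Of the 19 members whose human counterparts are mutated in Diamond-Blackfan anemia, 12 were called lower (63.2%) and 0 higher, with a median log2 fold change of -0.27. The share called lower was 70.0% over the 80 tested members and 14.5% over all tested genes.

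The 24 tested genes that were not called had log2 fold changes from -0.34 (Rpl22l1) to -0.0039 (Rpl7l1). Rps24, Rpl26, Rpl23a, Rps15 and Rpl37 had log2 fold changes between -0.30 and -0.22, with adjusted P values between 0.0508 and 0.0629, so they lay just outside the threshold. Rpl38, Rps23, Rps29, Rpl34 and Rps16 had log2 fold changes of -0.20, -0.16, -0.15, -0.13 and -0.10, with overlapping groups. Rpl27 had one of -0.073 (95% confidence interval -0.20 to 0.058) and Rpl31 one of -0.043 (interval -0.19 to 0.11).

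Rps27 (ENSMUSG00000090733, chr3:90212522-90213651, minus strand) encodes a zinc finger protein of the small subunit and stood nearest to 0 among the core genes. It had 233, 177 and 199 normalized CPM under normal glucose and 190, 199 and 217 under high glucose. The groups overlapped fully, and the log2 fold change of -0.0060 (95% confidence interval -0.21 to 0.20) changed sign under several other settings.

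Each library was also scaled to its own total over the ribosomal protein genes. This scaling removes by construction the shift that the members share, and what remains is how they differed from one another. On that scale 66 of the 80 genes lay within 0.1 of 0 on the log2 scale, from -0.18 for Rps12 to 0.27 for Rps27. By adjustment over all tested genes, Rps27 was the 1 member past the threshold (adjusted P = 0.0266 by the quasi-likelihood test). It was at 0.0570 with the replicate block, which left no member past it. On this scale 5.06% of all genes were lower and 38.3% higher, which makes that adjustment lenient for the members. No adjustment over the 80 members alone was made, and 3 of the 80 had an unadjusted P value under 0.05. A departure of Rps27 from the family was therefore not established. Rps27 made up 0.694%, 0.642% and 0.645% of the ribosomal protein counts under normal glucose and 0.760%, 0.784% and 0.841% under high glucose, so the high glucose shares lay wholly above the normal glucose shares. Rpl7l1 and Rpl31 followed at 0.26 and 0.22 without passing the threshold by the same lenient adjustment (adjusted P = 0.0526 and 0.0996).

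Each detected paralogue held the smaller share of the counts of its pair, and their fold changes ranged from -0.36 to -0.0039. Rps27l, a p53 target closely related to Rps27, had 84.5, 75.2 and 74.6 normalized CPM under normal glucose and 61.1, 64.0 and 61.0 under high glucose, a log2 fold change of -0.33 (SE 0.0608, adjusted P = 0.00212). Rps27l made up 26.6%, 29.9% and 27.3% of the counts of the pair under normal glucose and 24.4%, 24.3% and 21.9% under high glucose. The share was lower in every high glucose sample, a difference of -0.33 in the log2 ratio (two-sided exact permutation test, P = 0.1, adjusted over 5 pairs 0.25), where 0.1 is the smallest P value that 3 against 3 samples allow.

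Rpl7l1, a relative of Rpl7, had 80.7 and 83.3 normalized CPM in normal glucose replicates 2 and 3 and slightly less in replicate 1, against 79.5, 84.1 and 79.8 under high glucose. Its groups overlapped fully (log2 fold change -0.0039, 95% confidence interval -0.12 to 0.11), while Rpl7 fell with a log2 fold change of -0.24 (adjusted P = 0.0248). The call of Rpl7 was lost with the GC and length trend removed (adjusted P = 0.0585), with the replicate block (0.0588), and without high glucose replicate 1 or 3. The log2 ratio of Rpl7l1 to Rpl7 was 0.23 higher under high glucose (two-sided exact permutation test, P = 0.1, adjusted over 5 pairs 0.25).

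Rpl39l, a gene known from the testis, had 35.9, 33.5 and 34.9 normalized CPM under normal glucose and 26.0, 27.2 and 28.2 under high glucose, without overlap (log2 fold change -0.36, SE 0.0551, adjusted P = 0.000726). Rpl22l1 had 58.1, 42.7 and 40.6 normalized CPM under normal glucose and 36.8, 40.8 and 33.8 under high glucose, with a log2 fold change of -0.34 that missed the threshold (SE 0.124, adjusted P = 0.0577). Their log2 ratios to Rpl39 and Rpl22 changed by -0.13 and -0.056 (two-sided exact permutation tests, P = 0.2 and 0.6, adjusted 0.333 and 0.6). For Rpl36al and Rpl36a the ratio differed by 0.056 (exact permutation P = 0.4, adjusted 0.5).

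The remaining 2 paralogues were hardly detected. Rpl3l, known from heart and skeletal muscle, had 5, 9 and 8 counts under normal glucose and 16, 6 and 12 under high glucose. Rpl10l, known from the testis, had 0, 2 and 0 counts under normal glucose and 0 in every high glucose sample, which is under the floor of 3 counts. Of the symbols annotated as pseudogenes, Rpl6l stood at a log2 fold change of -0.45 (adjusted P = 0.0360) and Rps4l, the relative of Rps4x, one of -0.10 (adjusted P = 0.230), and Rpl32l had 7 to 15 counts per sample.

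Levels differed widely between members when expressed per kilobase of transcript. Over the 76 core genes the median was 482 normalized CPM per kb under normal glucose and 399 under high glucose. Rpl13a was the highest at 1710, 1369 and 1510 under normal glucose, followed by Rplp1 at 1467, 1170 and 1397 and Rplp0 at 1360, 1220 and 1368. The ranges of Rpl13a and Rplp1, and those of Rplp1 and Rplp0, overlapped under normal glucose, and Rpl13a shares 621 exonic bases with Gm45713 on its own strand. Rps20, Rpl22 and Rps15a were the lowest, with means of 120, 123 and 135 normalized CPM per kb under normal glucose and overlapping ranges. The order depended on the length used. Per kilobase of coding sequence, Rpl41 ranked 1 of 76 (4073 normalized CPM per kb) and Rpl13a 3 (1409), Rps15a moved from 74 to 39, and Rps20, with an annotated mean transcript length of 3706 bases, from 76 to 9. The order of the core genes was nearly the same in both media (Spearman's rho 0.990 across 76 genes).

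The genes with sequence features around the start did not stand apart within the family. The 19 core genes with CTTTCC on either strand within 50 bases of the start had a median log2 fold change of -0.28, against -0.27 for the 37 without it. The 20 genes with a pyrimidine run across the start base had a median of -0.26, against -0.28 for the other 36.

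The ribosomal protein genes Fau, Rpl36al and Rps3a1, outside the symbol pattern, fell as well. Fau, whose protein is cut from a ubiquitin-like fusion, had a log2 fold change of -0.32, Rpl36al one of -0.29 and Rps3a1 one of -0.26 (adjusted P = 0.0244, 0.0238 and 0.0344). Of 19 other TOP mRNAs that encode no ribosomal protein, 14 were called lower and 0 higher, with a median of -0.30. The share called lower was 73.7%, against 14.5% of all tested genes. The largest falls in this list were those of Vim, Nap1l1 and Pabpc1. Vim, the intermediate filament gene, had a log2 fold change of -0.50 (SE 0.0520, adjusted P = 5.03e-05), and Pabpc1, the poly(A)-binding protein gene, had 859, 876 and 870 normalized CPM under normal glucose and 651, 658 and 659 under high glucose. Nap1l1, a histone chaperone gene, changed by -0.41 on the log2 scale (adjusted P = 0.00272). Relative to their normal glucose means, these 19 genes had medians of 0.081, -0.074 and 0.0024 in the normal glucose samples and -0.33, -0.25 and -0.29 in the high glucose samples, so normal glucose replicate 1 was again the highest and replicate 2 the lowest.

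The mitochondrial ribosomal proteins, which serve the ribosome inside mitochondria and are encoded by mRNAs outside the TOP class, had a median log2 fold change of -0.053. Relative to their normal glucose means, they had medians of 0.108, -0.102 and -0.0027 in normal glucose replicates 1, 2 and 3. The medians were -0.097, -0.039 and -0.048 in the high glucose samples. The order of the normal glucose replicates was thus the same as in the ribosomal protein genes and the other TOP mRNAs. Of the 78 genes, 6 were called lower (7.69%) and 0 higher, where 14.5% of all tested genes were lower and 16.9% higher. Mrpl30, Mrpl45 and Mrps6 fell most (-0.29, -0.28 and -0.28). Ribosome biogenesis factors, which make and process the ribosomal RNA and assemble the subunits, had a median of -0.0090. Of the 58, 3 were lower (5.17%) and 8 higher (13.8%), both below the shares of all tested genes. Among these, the nucleolar gene Rrp1b had a log2 fold change of 0.40, Npm1, itself a TOP mRNA, one of -0.37 and Gnl2, a nucleolar GTPase gene, one of 0.36. Of 26 regulators of TOP mRNAs and of ribosomal protein transcription, 2 were lower (7.69%) and 7 were higher (26.9%), with a median of 0.025. The difference from the 16.9% of all tested genes called higher was not tested. Mtor had 42.8, 54.8 and 56.0 normalized CPM under normal glucose and 68.3, 64.7 and 64.6 under high glucose (log2 fold change 0.36, SE 0.0912, adjusted P = 0.0125), and Rptor, its partner in complex 1, had a log2 fold change of 0.35 (SE 0.0856, adjusted P = 0.0114). Mycn had one of -1.57 (SE 0.224, adjusted P = 0.000438) at less than 1 normalized CPM in every sample.

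**Figure D4:**
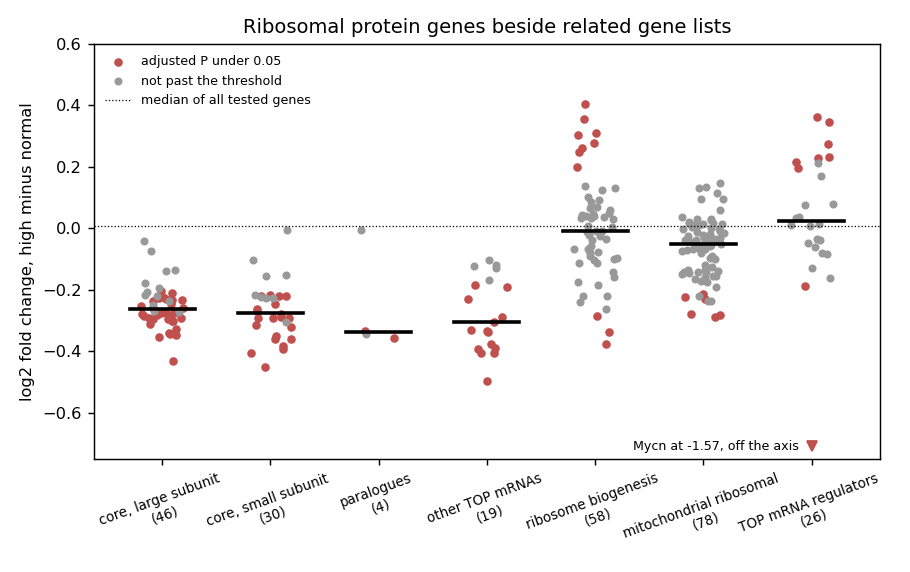
Log2 fold change between high and normal glucose (vertical axis) for the tested genes of each list, with red points for an adjusted P value under 0.05 and black lines for the medians. The core large subunit (46), core small subunit (30) and other TOP mRNAs (19) have medians of -0.26, -0.27 and -0.30, and ribosome biogenesis factors (58), mitochondrial ribosomal proteins (78) and regulators (26) of -0.0090, -0.053 and 0.025. Mycn, at -1.57, lies off the axis.

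Processed pseudogenes named after ribosomal protein genes can take reads from their parents. Of 298 such genes in the table, 141 could be tested, with a median log2 fold change of -0.30. Under high glucose 30 of these were lower (21.3%, against 14.5% of all tested genes) and 0 higher. The 298 pseudogenes held 0.0779% ± 0.00676 of all counts under normal glucose and 0.0588% ± 0.000957 under high glucose (SD, n = 3 each). Adding their counts to those of the parent genes moved the median of the members from -0.27 to -0.29 and the number called lower from 56 to 65, in a fit where 15.9% of all tested genes were lower. Exons of 38 of the 82 members overlap another annotated gene, 25 of them a small nucleolar RNA or miRNA on the same strand and 13 a protein-coding gene on the opposite strand.

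**Figure D5:**
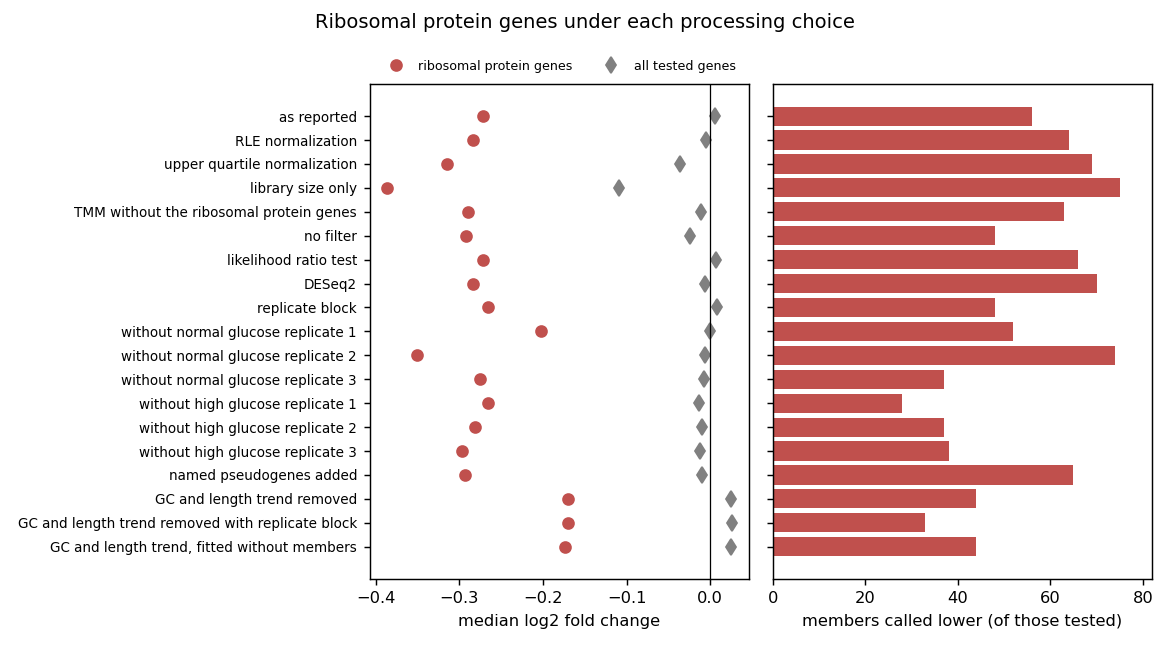
Median log2 fold change of the ribosomal protein genes (red circles) and of all tested genes (gray diamonds) in the left panel and the number of members called lower in the right panel, for the reported fit and each alternative fit (rows). The members' median runs from -0.39 with library size alone to -0.17 with the GC and length trend removed, and the number called runs from 28 to 75.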

How the data were processed

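RNA from 6 samples was sequenced by the authors, who used Trimmomatic for trimming, HISAT2 for alignment to GRCm38 and StringTie for counting reads per gene. They deposited raw counts. Versions and annotation release are not given in the sources used here. The labels name TRIzol and DNBSeq, whereas the methods name a QIAGEN kit and an Illumina HiSeq. Genes were filtered with filterByExpr (minimum count 10, minimum total 15), normalized by TMM and tested with the quasi-likelihood test of edgeR 4.0.16 in R 4.3.3, with Benjamini-Hochberg adjustment over 19015 genes and a threshold of 0.05. Normalized CPM are counts scaled to the same TMM-adjusted library total. TMM factors were 1.03 to 1.05 in normal glucose and 0.954 to 0.966 in high glucose. The biological coefficient of variation was 8.44%. Replicates of a group differed by more than sampling noise (chi-square per degree of freedom at least 9.76). Confidence intervals of fold changes come from the fit and carry the spread between samples, and the floor of 3 counts covers counting error only. The fit was tested on simulated counts with independent genes and the same dispersion for all. That setting does not cover genes that move together between samples, as the members did. Symbols, positions, biotypes and lengths came from GENCODE M21 and start sites from RefSeq GRCm38.p6. Pairs of paralogues were compared with exact permutation tests in SciPy 1.17.1.

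The members and lists were chosen with earlier results of these data known. Named genes are the 5 largest falls and rises among called members whose mean was 1 or more in log2 CPM, members with special roles, paralogue pairs, the 3 highest and 3 lowest core genes per length, members outside the pattern, and up to 3 called genes with the largest change from each other list. Uncalled members were named from the order of their values. The alternatives were RLE, upper quartile and library size scaling, TMM without the members, no filter, a likelihood ratio test, DESeq2 1.42.0, a threshold of 0.01, the replicate block, each sample left out, pseudogenes added and a GC and length trend removed with mgcv 1.9.3. Scaling to the ribosomal protein total, the trend fitted without members and the members with pseudogene-annotated symbols were added after the data had been seen. One member is counted but not described by name or drawn, and 1 gene outside the pattern is not reported here.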

Additional observations from a re-analysis of the deposited data

How the results depend on the processing

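No member was called higher in any of the 18 alternative fits. In all of them, 76 of the 80 members had a log2 fold change below 0 and 27 were called lower. The share of all tested genes called lower in every fit is not given here. With the GC and length trend removed, 76 of the 80 members were below 0, so members other than Rps27 and Rpl7l1 also crossed 0. Leaving out 1 sample gave between 28 (without high glucose replicate 1) and 74 (without normal glucose replicate 2) genes called lower, and 37 without normal glucose replicate 3 or without high glucose replicate 2. DESeq2 called 70 members lower, with 15.7% of all tested genes lower, and the likelihood ratio test 66, with 15.2% lower. A threshold of 0.01 left 20, and the share of all tested genes at that threshold is not given here. The same-numbered samples did not deviate together (correlations of -0.025, 0.0038 and 0.013 across genes), so the numbers do not show a pairing. In the fit with a replicate block, 48 members were called lower (47 of them also without it) with a median of -0.27, in a fit where 12.7% of all genes were lower and 15.3% higher. The block together with the GC and length trend left 33 (13.8% of all genes lower), and on the scale of the ribosomal protein total it left 0 members past the threshold (3 at an unadjusted P value under 0.05 without it). Rps27 was above 0 with the block (0.0013), without normal glucose replicate 1 (0.088), without high glucose replicate 1 (0.020), with the trend removed (0.11), with the trend and the block (0.11) and with the trend fitted without members (0.10), and Rpl7l1 without normal glucose replicate 3 (0.0030) and in the 3 trend fits (0.038 each). Leaving out 1 sample gave values from -0.11 to 0.088 for Rps27 and from -0.045 to 0.0030 for Rpl7l1. The cause was not tested. With 3 samples a group, an exact permutation test cannot go below 0.1.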
